A study of Mus musculus with 4 samples.

Results

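Matrix fibroblasts of mouse testicular organoids (TOs) and testes were taken from single-cell RNA sequencing data by a gate on 9 genes. A cell had to carry at least 8 UMIs of Mfap2, Mfap4, Olfml3 and Mgp together with at least 3 of these 4 genes detected, at least 1 UMI of Col1a1, fewer than 8 UMIs per 10000 of Acta2, Myh11 and Cnn1 together, and no UMI of Ptprc. The cells were thus chosen by the measured counts of these genes, and the levels of the 9 genes below are a description and not a finding. The gate held 2588 of 41484 cells kept, of which 2499 came from TOs and 89 from testes. All 41484 cells had 1000 to 5000 detected genes, at most 20000 UMIs (unique molecular identifiers, each counting 1 captured RNA molecule) and at most 10% mitochondrial UMIs.

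The study grew TOs from dissociated testes of ICR mice in their first week after birth to ask how far spermatogenesis proceeds outside the animal. Testicular cells were aggregated in microwells, embedded in basement membrane extract, cultured on transwell inserts at the air-liquid interface in medium with serum replacement, antioxidants, follicle-stimulating hormone and testosterone, and freed from the extract partway through the culture. The 4 libraries were 2 of TOs (TO replicates 1 and 2) and 2 of decapsulated testes (testis replicates 1 and 2), made from unsorted cells after collagenase and trypsin digestion. The design text gives an age of 28 days for both TOs and mice, while the dissociation protocol in the labels names TOs of day 21, and the study's methods name day 28. The labels give no strain for the mice of the testis libraries. TOs hold only cells carried over from the newborn testis, without blood flow, and the number of mice in a library is not given in the sources used here. The study's methods say that the TO cells stem from independent batches, and a legend in its supplement calls the testes biological replicates, but no source used here ties a batch to a TO library.

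Fibroblasts build and remodel the extracellular matrix. They secrete fibrillar collagens such as type I collagen (Col1a1, Col1a2), the microfibrils on which elastic fibres form (Mfap2, Mfap4, Fbn1), small leucine-rich proteoglycans that bind collagen fibrils (Dcn, Lum, Bgn) and the enzymes that modify and crosslink collagen. In the testis such cells lie in the interstitium, around vessels and under the capsule, beside the contractile peritubular myoid cells that encircle the tubules and express Acta2, Myh11 and Cnn1. Mgp, a calcium-binding matrix protein that inhibits calcification, and Olfml3, a secreted olfactomedin-family protein, are also made by fibroblasts of several tissues. In the mm10 build, Mgp lies on chromosome 6 (136872435 to 136875823), Mfap2 on chromosome 4 (141010418 to 141015984), Mfap4 on chromosome 11 (61485431 to 61488900) and Olfml3 on chromosome 3 (103722222 to 103738001).

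The share of matrix fibroblasts was higher in both TO libraries than in both testis libraries. Pairs of values are given for replicate 1 and then replicate 2 throughout. In TOs, 732 of 10759 cells (6.80%, 95% exact binomial CI 6.33 to 7.30) and 1767 of 9463 cells (18.7%, CI 17.9 to 19.5) passed the gate. In testes, 69 of 10804 cells (0.639%, CI 0.497 to 0.808) and 20 of 10458 cells (0.191%, CI 0.117 to 0.295) did. The means were 12.7% ± 8.39 and 0.415% ± 0.316 (SD, n = 2 libraries each), a difference of 12.3 percentage points. These shares are a description with no test, since the gate's own counts define them and the cells were chosen as a class known to be more common in TOs. The TO libraries were further from each other than TO replicate 1 was from the testes, and the difference was 6.39 percentage points without TO replicate 2 and 18.3 without TO replicate 1. Intervals cover counting error only.

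Germ cells were unevenly spread over the libraries, and 832 and 674 cells of TOs but 4309 and 3524 cells of testes passed the germ cell gate, so the share was also taken among cells with more UMIs of 8 somatic genes than of 9 germ cell genes. Among these somatic cells (9864 and 8752 in TOs, 2682 and 1662 in testes), the gate held 7.40% and 20.2% in TO libraries against 2.46% and 1.20% in testis libraries. The means were 13.8% ± 9.04 and 1.83% ± 0.889 (SD, n = 2 libraries each), and without TO replicate 2 the difference was 5.57 percentage points. Of the matrix fibroblasts, the stromal cells with Clec3b and Ebf1 and the myoid cells combined, matrix fibroblasts were 15.5% and 39.6% in TOs and 5.54% and 2.33% in testes. Depth moved with the groups: matrix fibroblasts had median UMI counts of 4972 and 7437 in TOs against 2468 and 3051 in testes, where all cells kept had 5594, 7603, 2600.5 and 3251. Thinning to 3000 UMIs left out shallower cells and kept 8935 and 8968 cells of TOs and 4644 and 5653 of testes. Of these, 4.78% and 12.3% in TOs and 0.280% and 0.0708% in testes were matrix fibroblasts, the testis shares resting on 13 and 4 cells.

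**Figure D1:**
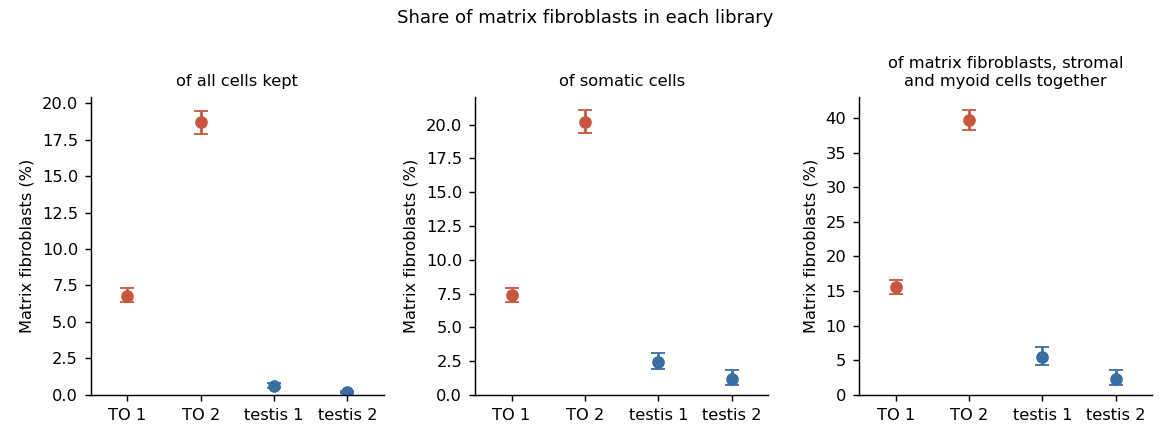
Share of matrix fibroblasts (%, y axes) in each of the 4 libraries (x axes), of all cells kept, of somatic cells, and of matrix fibroblasts, stromal cells and myoid cells together. Points are libraries and bars are 95% exact binomial intervals, and both TO libraries (red) lie above both testis libraries (blue) in each panel.

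The libraries shared few barcodes. Between 24 and 33 barcodes of kept cells occurred in each pair of libraries, and 0 barcodes were matrix fibroblasts in both of a pair. Doublets were not removed by the gate. The barcodes with the highest Scrublet scores were marked as likely doublets, up to a set share of 0.8% per 1000 barcodes. The share marked over a library was thus fixed in advance. Marked were 8.74% and 6.90% of the TO and 13.0% and 10.0% of the testis matrix fibroblasts. Of all cells kept, 8.89%, 7.93%, 8.67% and 9.01% were marked. The gates of other cell types (at least 3 markers detected for Sertoli and Leydig cells) were passed by 153 matrix fibroblasts of TO replicate 1, of which 101 passed the Sertoli gate and 59 the Leydig gate, and by 103, 3 and 1 in the other libraries. Read the other way, matrix fibroblasts were 3.75% and 8.60% of the cells passing the Sertoli gate in TOs. They were 3.23% and 1.42% of those passing the Leydig gate. Of those passing the germ cell gate they were 0.240% (2 of 832) and 0% (0 of 674, which allows up to 0.445%). That gate also requires more UMIs of the 9 germ cell genes than of the 8 somatic genes. In TO matrix fibroblasts the somatic genes summed to 20148 and 15758 CPM and the germ cell genes to 257 and 103 CPM. The low overlap with the germ cell gate thus follows from the gate itself.

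Mgp made up most of the counts that selected the cells. It reached 10515 and 13980 CPM (the UMIs of a gene per 1000000 UMIs of the summed cells of a class in a library) in TO matrix fibroblasts against 3427 and 8959 CPM in those of testes. It gave 89.2%, 91.5%, 69.4% and 89.1% of the marker UMIs. Mgp was high in other TO cells too, with 6161 and 12667 CPM in TO myoid cells against 327 and 557 CPM in testis myoid cells, and 208 and 125 CPM in TO cells passing the germ cell gate against 10.9 and 11.7 CPM in those of testes. Mfap2 was at 417 and 552 CPM in TO and 509 and 379 CPM in testis matrix fibroblasts. Mfap4 was at 643 and 623 CPM in TOs and 876 and 510 CPM in testes, and Olfml3 at 213 and 122 CPM in TOs and 127 and 204 CPM in testes. These 3 genes overlapped between TOs and testes, while Mgp was higher in both TO libraries. All 4 markers were detected in 35.7% and 40.3% of TO and 13.0% and 15.0% of testis matrix fibroblasts, at unequal depth.

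The share of cells at the marker threshold differed between libraries. In TO replicate 1, 17 matrix fibroblasts had a marker sum of 8 or 9 UMIs and 11 cells that met every other condition had 6 or 7, against a median of 44 UMIs. In TO replicate 2 these numbers were 15 and 14, with a median of 73. In testis replicate 1, 18 of 69 matrix fibroblasts had a sum of 8 or 9 UMIs, 15 cells had 6 or 7, and the median was 12. In testis replicate 2 the lowest sum was 14, and no cell lay in either window. With a threshold of 12 UMIs, testis replicate 1 held 37 cells (0.342%) in place of 69, while the other libraries held 687, 1730 and 20.

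The limit on contractile genes met different distributions in TOs and testes. Without that limit, 2564 and 3441 TO cells and 97 and 43 testis cells met the other conditions. In TO replicate 1, 71.5% of these marker-positive cells were above the contractile limit, in TO replicate 2 48.6%, in testis replicate 1 28.9% and in testis replicate 2 53.5%. In TOs the cells were spread over the whole range, with 164 and 200 cells at 4 to 8 contractile UMIs per 10000 and 264 and 337 cells at 8 to 20. In testes, 0 cells of either library lay between 4 and 20 per 10000, and 67 of the 69 and 20 of the 20 matrix fibroblasts had no contractile UMI at all. In TOs no gap in contractile counts lay at the limit. At 1500 UMIs per cell, Acta2 was detected in 24.5% and 13.0% of TO matrix fibroblasts, in 17.1% and 9.03% of TO stromal cells and in 26.5% and 9.87% of TO cells in the Sertoli gate, a type that should lack it. Before thinning these shares were 49.0% and 37.6%, 38.7% and 24.9%, and 51.99% and 25.96%. The contractile limit holds for matrix fibroblasts and stromal cells and not for the Sertoli gate, so these shares are a description. In testes the thinned shares were 0 of 69 and 0 of 20 matrix fibroblasts, and 3.98% and 1.23% of Sertoli-gate cells. Testis cells are shallower, so a single UMI there is a larger value per 10000. The part of background and depth in the distributions was not tested.

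**Figure D2:**
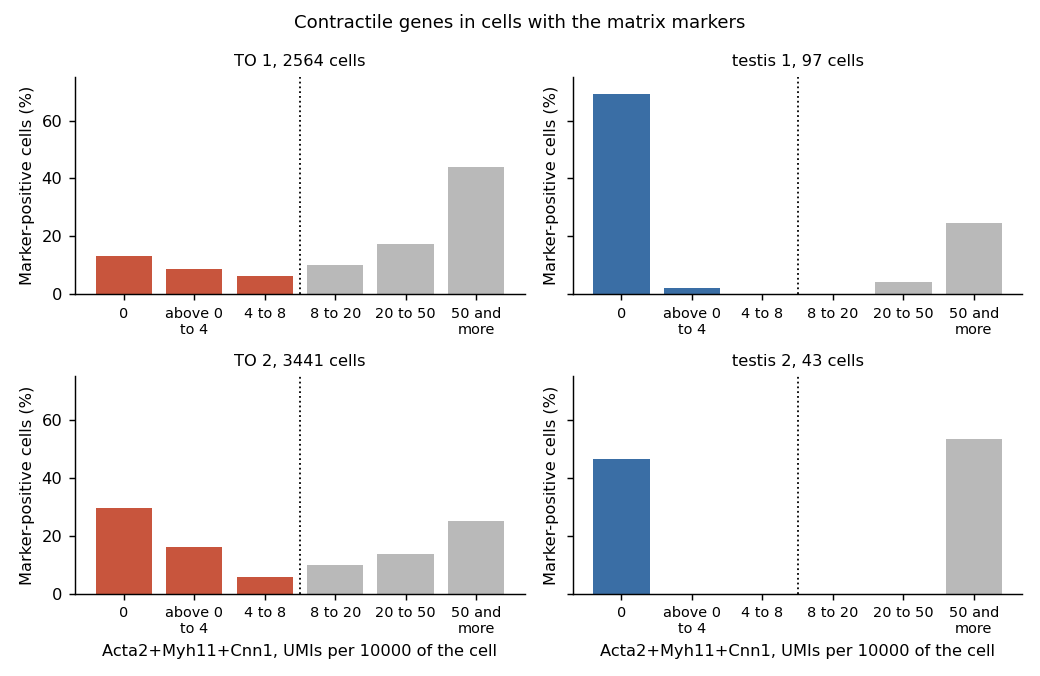
Contractile genes in cells with the matrix markers: the percentage of marker-positive cells (y axes) by the summed UMIs of Acta2, Myh11 and Cnn1 per 10000 UMIs of the cell (x axes, unequal bins), per library. Coloured bars left of the dotted line are matrix fibroblasts, grey bars are cells above the limit of 8, and only the TO libraries have cells between 4 and 20.

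The same marker combination was common in TO myoid cells. Of the cells with at least 8 contractile UMIs per 10000 and at least 2 of Acta2, Myh11 and Cnn1 detected, 41.8% (CI 40.2 to 43.4) and 62.7% (CI 60.7 to 64.7) met the matrix marker conditions in TOs. In testes, 3.80% (CI 2.54 to 5.45) and 5.15% (CI 3.29 to 7.62) did. The means were 52.3% ± 14.8 and 4.47% ± 0.948 (SD, n = 2 libraries each), a description with no test, since the gate's own markers are counted. Myoid cells had median UMI counts of 4657 and 6669.5 in TOs against 2740 and 3453 in testes. Cells counted here are kept out of the matrix fibroblasts by the contractile limit alone. Dcn, a collagen-binding proteoglycan that the gate does not use, was at 2646 and 2640 CPM in TO myoid cells and at 421 and 466 CPM in testis myoid cells. Dcn was also higher in TO than testis cells of the Sertoli gate (568 and 412 against 42.6 and 44.5 CPM). The same held for the macrophage gate (245 and 527 against 35.3 and 4.02 CPM) and the germ cell gate (75.9 and 38.3 against 16.4 and 9.80 CPM). Cells of the Leydig gate overlapped, at 412 and 130 CPM in TOs and 236 and 65.7 CPM in testes. The part of background in these levels was not tested.

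Outside the gate's genes, matrix fibroblasts of TOs stood above other somatic cells in collagens, proteoglycans and further fibroblast genes. Of 9755 genes with at least 10 CPM, 281 (2.88%) were over 2-fold higher in matrix fibroblasts than in the other somatic cells of both TO libraries, and 683 were over 2-fold lower. Since the gate that made the classes used the same cells, these ratios are a description with no test. The 20 genes with the highest ratio, taking the lower of the TO libraries and requiring 200 CPM, were Clec3b, Lum, Entpd2, Penk, Adam12, Ly6a, Col3a1, Gsn, Serpinf1, Dcn, Klf4, Col1a2, Gas1, Ebf1, Cd34, Efemp1, Htra3, Cygb, Matn2 and Sned1.

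Among the structural matrix genes of this profile, Dcn was at 6067 and 5759 CPM in TO matrix fibroblasts and 3618 and 5550 CPM in testis matrix fibroblasts, 4.17 and 3.40 times the level in other somatic TO cells. Col3a1, a fibrillar collagen of soft tissues, was at 2622 and 3017 CPM in TOs and 2673 and 1471 CPM in testes. Col1a2, the partner chain of Col1a1, was at 3150 and 3853 CPM in TOs and 2135 and 1471 CPM in testes. Dcn and Col1a2 were higher in both TO libraries, while Col3a1 overlapped. Lum, another collagen-binding proteoglycan, had 284 and 252 CPM in TOs and 186 and 58.3 CPM in testes, and ratios of 8.61 and 6.67 in TOs.

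Fibroblast surface and regulatory genes completed the profile. Cd34, a sialomucin of interstitial and vascular cells, was at 345 and 380 CPM in TOs and 328 and 306 CPM in testes. Ebf1, a transcription factor of mesenchymal cells, was at 928 and 1174 CPM in TOs and 1092 and 1573 CPM in testes. Clec3b, which encodes the plasminogen-binding protein tetranectin, was at 258 and 247 CPM in TOs and 602 and 437 CPM in testes. It was lower in both TO libraries. Some widely used fibroblast markers were at or near 0. Thy1 was at 0.245 and 0.584 CPM in TO matrix fibroblasts and 0 CPM in both testis libraries, and Dpp4, a marker of adventitial fibroblasts, was at 0 CPM in both TO libraries and at 4.90 and 0 CPM in testes.

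**Figure D3:**
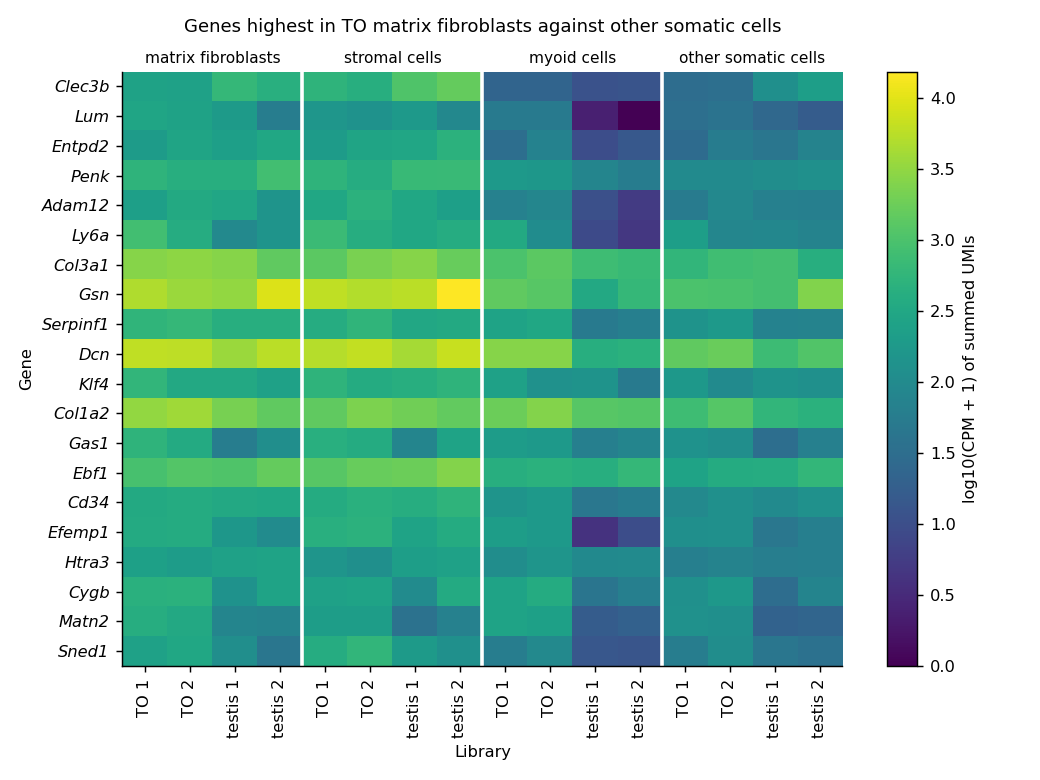
Levels of the 20 profile genes (rows) as log10(CPM + 1) of summed UMIs (colour) in matrix fibroblasts, stromal cells, myoid cells and other somatic cells (column blocks) of each library (columns). Matrix fibroblasts and stromal cells share high levels of Dcn and Gsn in all 4 libraries, and myoid cells of TOs have more Dcn (2646 and 2640 CPM) than those of testes (421 and 466 CPM). Dcn is also higher in the other somatic cells of TOs (1455 and 1695 CPM) than in those of testes (728 and 1134 CPM).

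Lists of matrix genes were counted against the same background. Of 16 collagen genes with enough counts, 10 were over 2-fold higher than in other somatic cells of both TO libraries and 0 were lower, and the 19 listed collagens together had 8767 and 10307 CPM in TO and 7701 and 5332 CPM in testis matrix fibroblasts. Of 16 genes of collagen processing, 7 were over 2-fold higher, among them Serpinh1, the collagen chaperone, and P4ha2 and P3h1, prolyl hydroxylases. Of 15 elastic fibre and microfibril genes, 5 were higher (Fbln1, Efemp1, Mfap5, Ltbp4 and Lox). Of 14 proteoglycan and matricellular genes, 7 were higher, and of 16 matrix proteases and inhibitors, 7 were, including the collagen-degrading Ctsk the inhibitor Timp1 and Serpinf1, a serpin family member that does not inhibit proteases. Of the 9 contractile genes outside the gate, 0 were higher and 3 were lower. Against stromal and myoid cells, where 0.447% and 1.17% of all genes were over 2-fold higher in place of 2.88%, the counts were 1 of 15 collagens against stromal cells (Col6a3) and 1 of 15 against myoid cells (Col3a1), 0 of 16 genes of collagen processing against either, and 1 and 2 of 15 proteases and inhibitors. Of elastic fibre and microfibril genes 3 of 15 were higher than in stromal cells and 2 of 16 than in myoid cells, and of proteoglycan and matricellular genes 5 of 15 and 4 of 14. Of contractile genes outside the gate, 0 of 8 were over 2-fold lower than in stromal cells and 8 of 10 than in myoid cells. Of all genes, 0.0654% and 2.28% were over 2-fold lower.

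The nearest class was that of stromal cells with Clec3b and Ebf1 that did not pass the matrix gate (382 and 466 cells in TOs, 441 and 393 in testes). Of 9180 genes, 41 (0.447%) were over 2-fold higher in matrix fibroblasts than in these cells in both TO libraries, and 6 were over 2-fold lower. Among the 10 genes with the highest ratios, Bgn, a proteoglycan of fibrils and bone, was at 670 and 546 CPM in TO matrix fibroblasts and 203 and 192 CPM in TO stromal cells, and Col4a1 and Col4a2, chains of basement membrane collagen, at 398 and 609 and at 451 and 511 CPM against 179 and 309 and 174 and 297 CPM. TO myoid cells had 558 and 754 CPM of Bgn, 437 and 760 CPM of Col4a1 and 390 and 518 CPM of Col4a2. They had 255 and 450 CPM of Mdk, a heparin-binding growth factor, against 305 and 356 CPM in TO matrix fibroblasts. Mdk, Lum, Col15a1, Cygb, Serpina3n, Col1a2 and Rcn3 completed the 10. Those with the lowest ratios were Clec3b, which with Ebf1 defined the stromal class, Sned1, Fabp3, Rtl4, Adam12, Slc7a8, Prlr, Ebf1, Aldh1a1 and Gstm2. Fabp3, a fatty acid-binding protein, was at 1367 and 937 CPM in matrix fibroblasts and 2736 and 1344 CPM in stromal cells of TOs.

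The classes share no cell, but many matrix fibroblasts also had Clec3b and Ebf1. Both genes were detected in 44.9% and 53.4% of TO and 63.8% and 45.0% of testis matrix fibroblasts. In TO replicate 1, matrix fibroblasts with both genes had more Gsn, an actin-severing protein (7291 against 2916 CPM), more Dcn (7443 against 5017 CPM) and more Col3a1 (3146 against 2223 CPM) than those without. In TO replicate 2 the levels were 4330 against 2567 CPM for Gsn, 6456 against 4931 CPM for Dcn and 3620 against 2301 CPM for Col3a1. In testis replicates 1 and 2 all 3 genes were also higher in the cells with both, on 44 against 25 and 9 against 11 cells. Igf1, a growth factor of interstitial cells, had no common direction, at 1315 against 1284 CPM in TO replicate 1 and 1160 against 1285 CPM in TO replicate 2. Pdgfra, the receptor typical of fibroblasts, was lower in TO cells with both genes (530 against 585 and 613 against 683 CPM). It was also lower in testis replicate 1 (380 against 500 CPM) and higher in testis replicate 2 (450 against 302 CPM).

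Against myoid cells of TOs, 109 of 9326 genes (1.17%) were over 2-fold higher in matrix fibroblasts and 213 were over 2-fold lower. The 10 highest ratios were those of Clec3b, Lum, Meg3, Igfbp4, Entpd2, Sned1, Adam12, Gsn, Penk and Ly6a. Igfbp4, which binds insulin-like growth factors, was at 427 and 458 CPM in TO matrix fibroblasts against 66.1 and 103 CPM in TO myoid cells. Among the 10 lowest were Tagln, Myl9, Prkg1, Tpm2, Carmn, Dmd, Col4a3, Lmod1 and Ccn2, most of which encode parts of the contractile apparatus or its regulators. Myl9, the regulatory myosin light chain, was at 159 and 108 CPM in matrix fibroblasts and 1573 and 1075 CPM in myoid cells of TOs.

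Markers of other cell types were present at unequal levels between libraries. The 5 Leydig cell markers (5 of 5 detected in TOs) summed to 1095 CPM in matrix fibroblasts of TO replicate 1, 97.3 CPM in TO replicate 2 and 250 and 14.6 CPM in testis replicates 1 and 2, with Insl3 the most abundant in TO replicate 1 at 365 CPM. The 6 Sertoli cell markers summed to 728, 285, 279 and 175 CPM, with Aard the most abundant in all 4 libraries and Amh at 0.490 and 0 CPM in TOs and 0 CPM in testes. The 6 macrophage markers summed to 284 and 139 CPM in TOs and 0 and 14.6 CPM in testes, most of it Lyz2 in TOs (241 and 111 CPM), and Ptprc was 0 by the gate. The 6 mesothelial markers (0.979, 0.584, 9.79 and 0 CPM) and the 4 Schwann cell markers (6.61, 5.04, 4.90 and 0 CPM) were at or near 0, and the 9 cartilage and bone markers summed to 23.7, 19.8, 14.7 and 43.7 CPM, mostly Runx2 and Alpl, with Matn1, Sp7 and Bglap at 0 in all 4 libraries. The 6 pericyte markers summed to 69.0, 73.4, 19.6 and 72.8 CPM, the 5 endothelial markers to 95.7, 121, 78.3 and 233 CPM and the 5 adipocyte markers to 47.0, 29.8, 68.5 and 29.1 CPM. The part of these cell types in the profile was not tested.

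Germ cell RNA was the largest foreign signal in the testes. The 5 spermatid genes Prm1, Prm2, Tnp1, Tnp2 and Meig1 summed to 63.9 and 34.5 CPM in TO and 5782 and 22230 CPM in testis matrix fibroblasts. The testis values were 50.1% and 30.5% of the level in all cells kept of the same library. In testis stromal cells they were 65.7% and 24.6%. If such shares of the UMIs were background, the CPM of the testis cells' own genes would be understated. The 9 germ cell markers summed to 257 and 103 CPM in TOs and 3079 and 1646 CPM in testes, with Ldhc, the lactate dehydrogenase of spermatocytes and spermatids, the most abundant. This signal moves with the condition and stands beside every TO against testis comparison that follows.

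TO and testis matrix fibroblasts were compared on sums of UMIs over the cells of each library, 4084457 and 13690365 UMIs in TOs and 204260 and 68647 UMIs in testes. Genes at least 5 times higher in the other cells of either condition were left out, as were the 9 gate genes, and a gene was called at an adjusted p below 0.01 and over 2-fold. Of 11596 genes tested with edgeR's quasi-likelihood F test (Benjamini-Hochberg adjustment), 72 (0.621%) were higher and 1014 (8.74%) lower in TOs. The median log2 fold change over all genes tested was 0.15. Of the fits that left out a library, the one without testis replicate 1, which held 69 of the 89 testis cells, called the fewest: 2 of 9439 genes (Adam23 and Frmd5) higher and 241 lower. That fit has a single testis library of 20 cells, assumed to vary like the TO pair, so a call lost in it does not show a smaller change, and the log2 fold changes of the 72 genes in it were all above 0, the lowest 1.48. Without TO replicate 1, 586 of 5940 genes tested (9.87%) were lower, and without TO replicate 2, 507 of 5993 (8.46%), shares close to 8.74% over fewer genes. After subtraction of each library's own background, an alternative added after seeing the data, edgeR called 0 genes, with 1153 at an unadjusted p below 0.05. For all libraries, 3005 genes (25.9%) had an unadjusted p below 0.05 in edgeR, and DESeq2 called 0.862% of the genes higher and 10.7% lower, which are the backgrounds for the list counts below.

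Of the 1014 lower genes, 986 had a higher CPM in testis cells of the germ cell gate than in testis matrix fibroblasts. The 8 with the largest fold among those of at least 50 CPM were Prm2 and Prm1, the protamines that pack sperm DNA, Cabs1, H1fnt, Sppl2c, H2al2a, Hmgb4 and 1700016H13Rik. Of these, Sppl2c alone had no higher CPM in the germ-gate cells. Prm2 had 1 UMI in both TO sums together and 113 and 643 UMIs in testis replicates 1 and 2. Cabs1, a spermatid calcium-binding protein, had 0 UMIs in TOs and 23 and 22 UMIs in testes, at least 977-fold lower in TOs when 3 UMIs over both TO sums are taken as the floor.

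The other 28 lower genes included Sppl2c, Hspa1l and Odf1, which spermatids express. Ecm1, Hmcn1, Podn and Col6a6, matrix genes with few counts in germ-gate cells, are named here after their values were seen. On the 5 fixed matrix lists, edgeR called 0 of 83 genes tested lower. Ecm1, a glycoprotein of skin and vessel matrix, was at 149 and 92.8 CPM in TOs and 397 and 554 CPM in testes, with 2.60 CPM in testis germ-gate cells (log2 fold change -1.81, edgeR adjusted p = 0.00208). Hmcn1, a large fibulin-family protein, was at 41.1 and 20.5 CPM in TOs and 108 and 189 CPM in testes (log2 fold change -2.06). Podn, a proteoglycan, was at 6.61 and 5.92 CPM in TOs and 39.2 and 72.8 CPM in testes (log2 fold change -2.89), and Col6a6 at 5.14 and 2.56 CPM in TOs and 63.6 and 29.1 CPM in testes (log2 fold change -3.74). None of the 4 was called without testis replicate 1, where their log2 fold changes were -3.24 to -1.91, or without TO replicate 2.

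Among the 72 higher genes, the 8 with the largest fold of at least 50 CPM were Saa3, B3galt1, Amy1, Rspo3, Homer1, Frmd5, Hist1h1c and Osmr. Saa3, an acute-phase apolipoprotein, was at 186 and 309 CPM in TOs against 0 and 14.6 CPM in testes (log2 fold change 6.14, SE 0.83, edgeR adjusted p = 0.000303). The testis value is a single UMI, and the ratio of pooled levels was 76.6 with an exact 95% counting interval of 13.7 to 3024. Frmd5, a FERM domain protein of cell junctions, had 10 and 1 UMIs in testes (49.0 and 14.6 CPM) and 414 and 602 CPM in TOs (log2 fold change 3.80, SE 0.50, edgeR adjusted p = 0.000248). It was the gene of these 8 that kept its call without testis replicate 1.

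The remaining 6 had between 1 and 8 UMIs in the testis sums. B3galt1, a galactosyltransferase, was at 216 and 170 CPM in TOs against 0 and 14.6 CPM in testes, with a pooled ratio of 49.4 (8.86 to 1951). Osmr, the receptor subunit for oncostatin M, was at 98.4 and 113 CPM in TOs against 14.7 and 0 CPM in testes, with a pooled ratio of 10.0 (3.42 to 48.5). Rspo3, a secreted agonist of Wnt signalling, was at 57.0 and 51.1 CPM in TOs against 4.90 and 0 CPM in testes, with a pooled ratio of 14.3 (2.56 to 566). The wide intervals show how little the 89 testis cells hold of such genes.

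Other higher genes with more testis counts were picked after their values were seen. C7, a complement component of the membrane attack complex, was at 2377 and 1147 CPM in TOs and 181 and 452 CPM in testes (log2 fold change 2.74). Serpina3n, a secreted protease inhibitor induced in inflammation, was at 532 and 392 CPM in TOs and 73.4 and 58.3 CPM in testes (log2 fold change 2.84). Its rise was not particular to matrix fibroblasts. It was at 226 and 232 CPM in TO against 40.3 and 27.2 CPM in testis stromal cells, and at 340 and 291 against 8.27 and 7.39 CPM in myoid cells. Levels of the other genes of this paragraph in those classes are not given here. Cebpb, a transcription factor of the acute-phase response, was at 425 and 375 CPM in TOs and 49.0 and 87.4 CPM in testes (log2 fold change 2.82). Stat3, which acts downstream of interleukin-6 family receptors, was at 346 and 308 CPM in TOs and 113 and 43.7 CPM in testes (log2 fold change 1.94). Zfp36, which destabilizes messages of cytokines, was at 666 and 422 CPM in TOs and 97.9 and 72.8 CPM in testes. None of these 5 was called without testis replicate 1, where their log2 fold changes were 2.25 to 3.28.

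**Figure D4:**
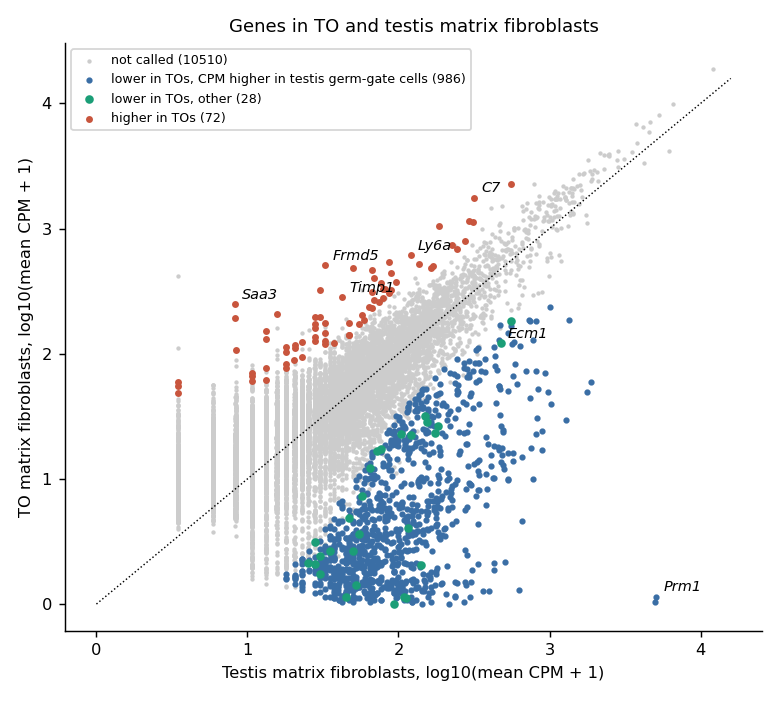
Genes tested in TO (y axis) against testis (x axis) matrix fibroblasts, as log10 of the mean CPM of 2 libraries plus 1. Genes called higher in TOs are red (72), genes called lower are blue where testis germ-gate cells had a higher CPM (986) and green otherwise (28), and the dotted line marks equal levels.

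Most matrix genes did not pass the test between TOs and testes. Of 83 genes tested on the 5 matrix lists, edgeR called 2 higher (Matn2 and Timp1) and 0 lower, 30 had an unadjusted p below 0.05 (25.9% over all genes), and DESeq2 called 6 higher and 1 lower. Over all 11 lists, which also cover signalling, contractile, cell division and early response genes, 163 of 206 genes were tested, 7 called higher, 2 lower and 154 not called, or 4.29% and 1.23% against 0.621% and 8.74% of all genes tested. Of 16 collagens tested, edgeR called 0 in either direction, 2 had an unadjusted p below 0.05, DESeq2 called 1 lower, and the median log2 fold change was 0.48. Of 16 elastic fibre and microfibril genes edgeR called 0, 4 had an unadjusted p below 0.05, DESeq2 called 1 higher, and the median was 0.24. Of 16 genes of collagen processing edgeR called 0, 12 had an unadjusted p below 0.05 (25.9% over all genes), DESeq2 called 3 higher, and the median was 1.03, with 14 of the 16 above 0. Serpinh1 was at 928 and 1093 CPM in TOs and 622 and 539 CPM in testes, and Crtap, a partner of the prolyl 3-hydroxylases, at 341 and 363 against 176 and 146 CPM, without overlap. Dcn, Col1a2 and Sparc had log2 fold changes of 0.54, 1.06 and 0.96 with SE of 0.46, 0.45 and 0.50, and none of the 3 passed the test (edgeR adjusted p = 0.501, 0.155 and 0.247).

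The 7 higher listed genes were Matn2, Timp1, Ptch1, Ly6a, Mdk, Tpm2 and Hspa1b. Timp1, an inhibitor of metalloproteinases, was at 302 and 263 CPM in TOs and 39.2 and 43.7 CPM in testes (log2 fold change 2.89, SE 0.39, edgeR adjusted p = 0.000283). Matn2, a matrix adaptor protein, was at 407 and 328 CPM in TOs and 78.3 and 72.8 CPM in testes (log2 fold change 2.36, SE 0.36, edgeR adjusted p = 0.000753). Ly6a, known as Sca-1 and found on mesenchymal and vascular cells, was at 839 and 383 CPM in TOs and 93.0 and 146 CPM in testes (log2 fold change 2.56, SE 0.46, edgeR adjusted p = 0.0023). Mdk was at 305 and 356 CPM in TOs and 88.1 and 72.8 CPM in testes, and Ptch1, the Hedgehog receptor and target, at 164 and 204 CPM in TOs and 44.1 and 72.8 CPM in testes. None of the 7 was called without testis replicate 1, where their log2 fold changes were 1.65 to 3.84. Stromal cells moved too: Matn2 was at 213 and 216 CPM in TO and 36.4 and 69.2 CPM in testis stromal cells, Timp1 at 154 and 164 against 22.5 and 19.1 CPM, and Mdk at 88.2 and 152 against 24.0 and 7.36 CPM. In myoid cells Matn2 was at 267 and 233 CPM in TOs and 15.2 and 19.1 CPM in testes. Over all genes, edgeR called 133 of 12104 (1.1%) higher and 1685 (13.9%) lower in TO than testis stromal cells.

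Meox1, a mesodermal homeobox gene, and Birc5, a mitotic survivin, were the 2 lower listed genes. Meox1 was at 1.47 and 1.39 CPM in TOs and 29.4 and 29.1 CPM in testes, the latter on 6 and 2 UMIs, and lost its call whichever of the 4 libraries was left out. Birc5 was at 17.6 and 9.42 CPM in TOs and 83.2 and 87.4 CPM in testes, and the cell division list, of which 5 of 10 genes were tested, had a median log2 fold change of -1.76. In germ-gate cells of testis replicates 1 and 2, Birc5 was at 195 and 221 CPM. Birc5 kept its call when testis replicate 2 was left out and lost it for each other library.

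The filter on other cells left out 692 genes, of which 380 were at 0 in both testis sums, and several of these were on the lists. Ctsk, a collagen-degrading cathepsin, was at 59.7 and 70.2 CPM in TO matrix fibroblasts, at least 6.17-fold higher than in testes with 3 UMIs over both testis sums as the floor. Ccl2, a chemokine that attracts monocytes, was at 53.9 and 69.2 CPM, at least 5.98-fold higher. Lox, which crosslinks collagen and elastin, was at 34.0 and 34.5 CPM, at least 3.13-fold higher, and Il33 was at 53.4 and 30.3 CPM, at least 3.24-fold higher. In the complement, chemokine and cytokine list as tested, edgeR called 0 of 8 genes, 6 had an unadjusted p below 0.05 (25.9% over all genes), DESeq2 called 2 higher, and the median log2 fold change was 1.47. Serping1, the C1 inhibitor, was at 2044 and 1583 CPM in TOs and 695 and 1020 CPM in testes.

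The early response genes, which many stimuli and tissue dissociation induce within minutes, mostly did not pass the test. Junb was at 2771 and 1776 CPM in TOs and 867 and 699 CPM in testes, and Ier2 at 1860 and 1158 CPM in TOs and 553 and 408 CPM in testes. Of the 16 listed genes, 1 (Hspa1b, a heat shock protein) was called higher and 0 lower by edgeR, 9 had an unadjusted p below 0.05 (25.9% over all genes), DESeq2 called 3 higher, and the median log2 fold change was 1.04. The list summed to 11818 and 6400 CPM in TO and 5013 and 2768 CPM in testis matrix fibroblasts, and to 11083, 7426, 4098 and 2296 CPM in stromal cells of the same libraries. The level thus moved with the libraries in both classes.

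Whether matrix fibroblasts differed from stromal cells in the TO against testis change was tested as an interaction of class and condition with library as a block. Of 11955 genes, 20 (0.167%) had a higher and 5 (0.0418%) a lower signed log2 change in matrix fibroblasts (edgeR quasi-likelihood F test, adjusted p below 0.01 and over 2-fold). In this fit the spread was in effect pooled over genes. Its p-values and SE thus do not measure how far a single gene varied between the libraries of a condition. A higher signed change can be a smaller fall, as for Cxcl14, a chemokine, with -1.68 in matrix fibroblasts and -3.61 in stromal cells, and a lower one a larger fall, as for Lrrtm3, with -2.80 and -0.83. With sums thinned to the smallest library or with background subtracted, edgeR called 0 genes, with 340 and 689 at an unadjusted p below 0.05, and DESeq2 called 10 but gave no adjusted p for 9362 of 13797 genes fitted. Col6a3, Col5a1, Fbn1, Col1a2 and Fn1 were among the 20, and Fn1 rests on 0 and 5 UMIs in testis matrix fibroblasts. These genes are named singly, since no share of the matrix lists called in the interaction is given. Among the cells with Clec3b and Ebf1, the matrix gate took 46.3% and 66.9% in TOs and 9.07% and 2.24% in testes, so that the stromal class lost unequal parts of its marker-rich cells, and the part of this in the interaction was not tested.

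Col1a2 was at 3150 and 3853 CPM in TO and 2135 and 1471 CPM in testis matrix fibroblasts, and at 1474 and 2312 CPM in TO and 1873 and 1499 CPM in testis stromal cells. The change was larger in matrix fibroblasts by 1.05 on the log2 scale (SE 0.16). Col6a3, a chain of beaded-filament collagen, was at 87.4 and 127 CPM in TO and 127 and 117 CPM in testis matrix fibroblasts, while stromal cells had 41.2 and 57.2 CPM in TOs and 146 and 104 CPM in testes (difference 1.45, SE 0.32). Fbn1, the main microfibril protein, was similar, with overlapping levels in matrix fibroblasts and 83.5 and 120 CPM in TO against 236 and 182 CPM in testis stromal cells (difference 1.39, SE 0.30). For Col6a3 and Fbn1 both TO libraries lay below both testis libraries in stromal cells, and the libraries overlapped in matrix fibroblasts.

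Ly6a and Lbp, the lipopolysaccharide-binding protein, were the genes of this set that were also called higher in TO matrix fibroblasts. Ly6a was at 699 and 398 CPM in TO and 315 and 381 CPM in testis stromal cells. This was a smaller change than in matrix fibroblasts by 1.96 on the log2 scale (SE 0.28, edgeR adjusted p = 2.9e-08, spread pooled over genes). In myoid cells Ly6a was at 340 and 106 CPM in TOs and 7.84 and 3.70 CPM in testes. Igfbp6, a binding protein for insulin-like growth factors, was at 1568 and 1330 CPM in TO and 1165 and 1180 CPM in testis matrix fibroblasts and at 1379 and 1404 CPM in TO and 1950 and 2330 CPM in testis stromal cells (difference 1.13, SE 0.17). Defb19, Clu, Gem, Lrrtm3 and Espn had a lower signed log2 change in matrix fibroblasts. The direction turned for Clu, from -1.46 to 0.22, when members passing another gate were left out, and for Defb19, from -1.11 to 0.14, without testis replicate 1. Defb19 was at 580 and 122 CPM in TO and 543 and 87.4 CPM in testis matrix fibroblasts, and at 1111 and 134 CPM in TO and 277 and 113 CPM in testis stromal cells, so that it was high in replicate 1 of both conditions. Clu was high in TO replicate 1 in both classes, at 440 and 82.2 CPM in TO replicates 1 and 2 in matrix fibroblasts and 859 and 90.6 CPM in stromal cells. Without TO replicate 1, 3 genes were called, without TO replicate 2, 8 genes, and without testis replicate 1, 15 genes, of which 3, 7 and 6 were among the 25. Ly6a kept its call whichever of the 4 libraries was left out. Col1a2 kept it when testis replicate 1 was left out and lost it for each other library, Igfbp6 kept it for each testis library and lost it for each TO library, and Col6a3 and Fbn1 kept it when testis replicate 2 was left out and lost it for each other library.

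**Figure D5:**
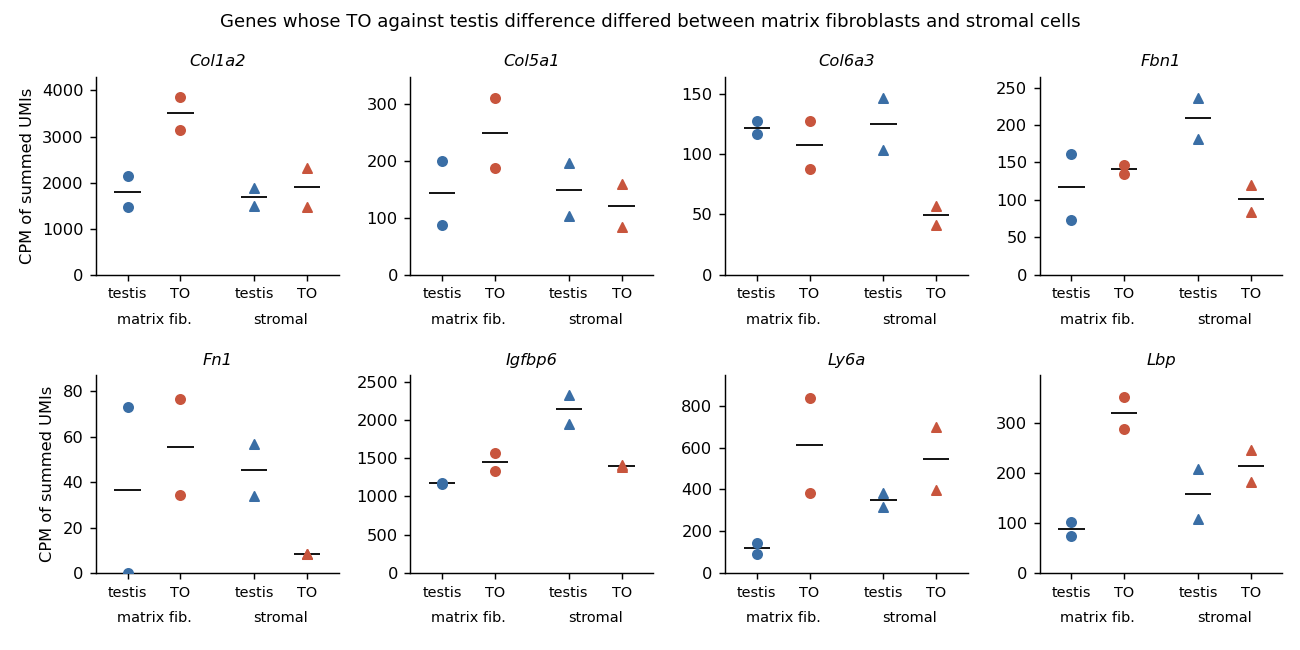
Levels (CPM of summed UMIs, y axes from 0) of 8 genes called in the interaction, in matrix fibroblasts (circles) and stromal cells (triangles) of testis (blue) and TO (red) libraries. Points are libraries and lines are means of 2, and Col6a3 and Fbn1 are lower in TO than testis stromal cells while their levels in matrix fibroblasts overlap.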

How the data were processed

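Single-cell RNA-seq libraries of 2 TO and 2 testis samples were analysed. The files as deposited by the authors are matrices of UMI counts that had not been filtered by cell quality or normalized. They were made with Cell Ranger 7.1.0 on mm10, per the submitters' processing notes, with 14643 and 12491 barcodes in TOs and 12179 and 11826 in testes. Total UMIs were 106577822 and 119966959 in TOs and 77016449 and 74988295 in testes. Members, gene lists and tests were chosen with earlier results of these data known.

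Counts of the selected cells were summed per library and class. Sums were tested with edgeR 4.0.16 (R 4.3.3, TMM, filterByExpr, quasi-likelihood F test, Benjamini-Hochberg adjustment). Each SE given is the absolute log2 fold change divided by the square root of the F statistic, so it restates the test. Of 12295 genes fitted, 692 with at least 5 times the CPM in other cells were left out, 380 of them with 0 UMIs in testis matrix fibroblasts, and 7 were gate genes. Stromal cells had Clec3b and Ebf1, fewer than 8 contractile UMIs per 10000 and no Ptprc, and were not matrix fibroblasts. Other gates required at least 3 markers, or Ptprc and further markers for macrophages. The germ cell gate also required more UMIs of the germ cell genes than of the somatic genes.

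The permutation test planned for the shares is not given, since the gate's own counts define them. Named genes were the 20 with the highest ratio to other somatic cells, the 10 highest and lowest against each like class, the 8 with the largest change in each direction at 50 CPM or more, called listed genes and genes called in the interaction. Alternatives were DESeq2 1.42.0, other normalizations, filters, gates, Scrublet doublets (scanpy 1.11.5), thinned sums, a replicate block, left-out libraries and, added after seeing the data, background subtraction. In data simulated for the TO against testis comparison (12295 genes), 2%, 46.5% and 67% of genes changed 2-, 4- and 8-fold were recovered. Every simulated gene had the same set dispersion, and germ cell RNA did not differ between the simulated conditions. These rates may thus not hold for the measured genes. Scripts used Python 3.11.15, numpy 2.4.6, pandas 2.3.3, scipy 1.17.1 and matplotlib 3.10.9. DoubletFinder, the study's tool, was not used here. A gene that the naming rule selected against myoid cells is not reported here.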

Additional observations from a re-analysis of the deposited data

Results flagged for a closer look

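For 25 genes, a test of the difference between 2 cell classes found that the TO against testis log2 change was not the same in matrix fibroblasts and in stromal cells with Clec3b and Ebf1 (edgeR, interaction with library as a block), while with thinned sums or with background subtracted 0 genes were called (340 and 689 at an unadjusted p below 0.05) and with DESeq2 10. The difference was 4.16 for Fn1, which rests on 0 and 5 UMIs in testis matrix fibroblasts. It was 2.30 for Cxcl14, 2.00 for Crip1, 1.96 for Ly6a, 1.67 for Rnase4, 1.57 for Lbp, 1.45 for Col6a3, 1.41 for Epb41l2, 1.39 for Fbn1, 1.32 for Pltp, 1.28 for Col5a1 and 1.28 for S100a6. It was 1.27 for Ahnak, 1.25 for Marcks, 1.20 for Cox6b2, 1.18 for Meg3, 1.15 for Spink2, 1.14 for Heg1, 1.13 for Igfbp6 and 1.05 for Col1a2. It was -1.11 for Defb19, -1.46 for Clu, -1.50 for Gem, -1.76 for Lrrtm3 and -2.62 for Espn. Cox6b2 and Spink2 were also among the genes lower in TO matrix fibroblasts with a higher CPM in germ-gate cells.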

How the results depend on the processing

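The share of matrix fibroblasts stayed higher in TOs under each alternative, with differences of 8.35 (cells thinned to 3000 UMIs) to 16.4 percentage points (mitochondrial limit of 5%) among all cells, and of 6.39 to 18.3 with a library left out. The 72 genes called higher became 16 of 1472 genes tested (1.09% against 0.621%) with sums thinned to the smallest library, 0 with background subtracted, and 2 to 80 with a library left out. The 1014 genes called lower became 400 of 9457 (4.23% against 8.74%) when genes were left out from 2 times the CPM in other cells, 136 of 1472 (9.24%) with thinned sums, 0 with background subtracted, and 241 to 979 with a library left out. The 25 interaction genes became 10 with DESeq2 (no adjusted p for 9362 of 13797 genes fitted), 15 with a threshold of 5 marker UMIs, 14 without members passing another gate, 0 with thinned sums (edgeR, 340 at an unadjusted p below 0.05), 0 with background subtracted (689 at an unadjusted p below 0.05), and 3 to 24 with a library left out. The cause of these moves was not tested. The interaction reversed for Clu, to 0.22, without members passing another gate, and for Defb19, where leaving out a library gave -1.51 to 0.14. With the replicate block, 219 genes were called higher, including all 72, and 1139 lower. Same-numbered libraries had a correlation of 0.0996 in their deviations from the group means, which over 2 pairs cannot show whether they share a batch, so they were treated as sharing a number only. For named genes, 285 values under alternatives kept direction and call in the TO against testis comparison, 83 lost the call and 0 reversed, against 185, 188 and 2 in the interaction. The smallest testis sum held 68647 UMIs, and the part of its depth in the calls was not tested.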
